A study of Mus musculus with 13 samples.

Results

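Apod, Smco1, Hnmt, Efnb3 and Clec3b are 5 genes whose signal was higher in hearts of OMA1 ASO-treated mice than in hearts of CTRL ASO-treated mice, and they were chosen by that difference. They were found by the gene symbols in the annotation of the array, with 1 transcript cluster (the probe set that stands for a gene) each, so that 5 of 22206 clusters are described. Because they were selected on the difference between the OMA1 ASO and CTRL ASO arrays, it is given below as a description and without a test, for both OMA1 ASOs together and for each.

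Transcripts were measured in hearts of 33-week-old mice with Clariom S Mouse arrays, 1 for each heart. All mice, CTRL ASO-treated ones included, carried the C10 G58R knock-in mutation (C10 is the mitochondrial protein CHCHD10) and were OMA1+/-, so that each already lacked 1 copy of Oma1. The mice received weekly subcutaneous injections, at 50 mg/kg, of OMA1 ASO2 (3 arrays), OMA1 ASO1 (5 arrays) or the nontargeting CTRL ASO (5 arrays). An ASO is an antisense oligonucleotide, a short synthetic nucleic acid that pairs with an RNA and lowers its level. The ASOs acted in the whole animal and were not limited to the heart, and mice of another C10 genotype were not analysed here. In whole hearts, a change in the share of a cell type and a change in RNA per cell cannot be told apart.

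The values are log2 signals, in which a step of 1 is a doubling of the signal. The background of an array was taken as the highest of its 23 groups of background probe sets, at 5.77 to 6.07, and between 9299 and 10069 clusters lay above it on each array. Oma1, the targeted gene and the gene of a protease of the inner mitochondrial membrane, lay between 3.74 and 5.48 on the 8 OMA1 ASO arrays, all below background, and between 9.13 and 9.83 on the 5 CTRL ASO arrays. With OMA1 ASO, Oma1 was lower by at least 10.7-fold. OMA1 ASO1 replicate 5 stood apart from the other arrays, with a mean correlation of 0.974 with its own treatment group against 0.984 to 0.990 for the other arrays, so each gene is also given without it. The Y-linked genes were above background on 0 of the 3 OMA1 ASO2 arrays, 2 of the 5 OMA1 ASO1 arrays and 2 of the 5 CTRL ASO arrays, and the labels give no sex.

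The 5 genes belong to different systems. Apod encodes apolipoprotein D, a secreted lipocalin that carries small hydrophobic molecules such as arachidonic acid and is known in the nervous system for its rise with age and injury. Hnmt encodes histamine N-methyltransferase, which inactivates histamine inside cells with a methyl group from S-adenosylmethionine. Efnb3 encodes ephrin-B3, a transmembrane ligand that signals to Eph receptors on neighbouring cells and is best known from axon guidance. Clec3b encodes tetranectin, a secreted C-type lectin-like protein that binds the kringle 4 domain of plasminogen, the precursor of the protease plasmin. Smco1 is named for its single membrane pass and its coiled-coil domains.

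The promoter sequences are shown first as background. The shared rise of the 5 genes follows from how they were picked, and Apod and Smco1 lie on the same chromosome. The table of RefSeq promoters held 3 of the 5 genes. The 250 bases before the annotated start follow in GRCm38.p6, 5′ to 3′ on the strand of the gene, for Apod at chr16:31314809-31315058 (minus strand), Smco1 at chr16:32271230-32271479 (plus strand) and Hnmt at chr2:24049380-24049629 (minus strand). Capitals mark each match to the E-box CANNTG or to the LXR half-site AGGTCA, which is read as TGACCT on the other strand.
Apod: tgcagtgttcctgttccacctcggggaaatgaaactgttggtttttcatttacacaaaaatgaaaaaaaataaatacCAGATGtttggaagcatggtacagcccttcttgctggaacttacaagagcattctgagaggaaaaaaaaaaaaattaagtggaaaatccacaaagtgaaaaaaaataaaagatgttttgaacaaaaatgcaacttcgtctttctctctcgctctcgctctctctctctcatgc
Smco1: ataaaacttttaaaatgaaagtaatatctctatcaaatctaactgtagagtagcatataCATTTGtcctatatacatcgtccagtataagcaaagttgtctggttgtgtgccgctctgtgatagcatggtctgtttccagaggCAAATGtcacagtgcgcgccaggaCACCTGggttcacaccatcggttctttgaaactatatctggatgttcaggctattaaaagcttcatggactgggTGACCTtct
Hnmt: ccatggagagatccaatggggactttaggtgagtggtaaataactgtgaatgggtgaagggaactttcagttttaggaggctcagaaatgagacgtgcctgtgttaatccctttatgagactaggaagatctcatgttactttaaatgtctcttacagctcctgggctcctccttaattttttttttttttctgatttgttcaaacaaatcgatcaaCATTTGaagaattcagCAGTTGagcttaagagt

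These promoters held 36.4% G and C for Apod, 40.8% for Smco1 and 38.8% for Hnmt, against a median of 52.4% over 32851 mouse promoters of the same length. The E-box, which basic helix-loop-helix factors bind, occurred once in the Apod promoter, at positions -173 to -168 from the start, 3 times in the Smco1 promoter and 2 times in the Hnmt promoter. An E-box was also in 66.2% of all promoters, so its presence in these 3 is the common case. The half-site AGGTCA, bound by LXR and other nuclear receptors, occurred once, in the Smco1 promoter at positions -9 to -4, and was in 14.0% of all promoters. None of the 3 windows held, on either strand, the TATA box TATAAA (in 12.4% of promoters), the E-box form CACGTG (6.02%, each also a match to CANNTG), the ATF4-C/EBP element TGATGNAAN (3.44%), the forkhead element GTAAACA (3.17%), the glucocorticoid half-site AGAACA (16.1%) or the D-box TTANGTAA (2.06%). A match is a run of letters and no evidence that a factor binds there.

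Apod, the lipocalin, had the widest separation of the 5 genes. Its log2 signals were 11.61, 11.69 and 12.44 on the OMA1 ASO2 arrays, 11.57, 11.60, 12.11, 13 and 14.63 on the OMA1 ASO1 arrays, and 8.74, 9.54, 9.70, 8.79 and 8.58 on the CTRL ASO arrays, each in the order of the replicate numbers. Every OMA1 ASO array lay above every CTRL ASO array, and the lowest of them was 1.87 above the highest CTRL ASO array. The mean was 12.33 ± 1.06 (SD, n = 8) with OMA1 ASO and 9.07 ± 0.51 (SD, n = 5) with CTRL ASO, a log2 difference of 3.26 (standard error 0.424) or 9.60-fold. One array, OMA1 ASO1 replicate 5 at 14.63, stood 2.56 above the mean of the other 4 OMA1 ASO1 arrays. Without it the mean with OMA1 ASO was 12.00 ± 0.55 (SD, n = 7) and the difference 2.94, or 7.65-fold. All 13 arrays were above background for Apod, by 5.55 to 8.62 with OMA1 ASO and by 2.55 to 3.67 with CTRL ASO.

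Smco1 was the gene with the least spread among OMA1 ASO arrays. It measured 8.92, 9.07 and 9.66 with OMA1 ASO2, 8.71, 8.86, 8.96, 9.18 and 9.03 with OMA1 ASO1, and 6.28, 6.47, 7.93, 7.28 and 7.22 with CTRL ASO. The treatments did not overlap, and CTRL ASO replicates 1 and 2 were close to background while replicate 3 was the highest of the CTRL ASO arrays. The mean was 9.05 ± 0.29 (SD, n = 8) with OMA1 ASO and 7.04 ± 0.67 (SD, n = 5) with CTRL ASO, a difference of 2.01 (standard error 0.240) or 4.03-fold. OMA1 ASO1 replicate 5, at 9.03, was 0.10 above the mean of the other OMA1 ASO1 arrays, and without it the difference stayed at 2.01.

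Hnmt, the histamine methyltransferase, was well above background on all 13 arrays. Its signals were 11.28, 12.06 and 10.84 with OMA1 ASO2, 10.52, 11.29, 11.03, 10.80 and 10.74 with OMA1 ASO1, and 9.31, 9.45, 9.48, 9.58 and 10.10 with CTRL ASO. The lowest OMA1 ASO array was 0.42 above the highest CTRL ASO array, replicate 5. The mean was 11.07 ± 0.48 (SD, n = 8) with OMA1 ASO and 9.58 ± 0.30 (SD, n = 5) with CTRL ASO, a difference of 1.49 (standard error 0.224) or 2.81-fold. Here OMA1 ASO1 replicate 5 was an ordinary array, 0.17 below the mean of the other OMA1 ASO1 arrays, and the difference without it was 1.53.

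Efnb3, the ephrin, separated the treatments by a small margin. It measured 8.23, 7.90 and 8.52 with OMA1 ASO2, 8.81, 7.92, 8.33, 8.14 and 7.58 with OMA1 ASO1, and 6.46, 6.43, 7.47, 7.04 and 6.88 with CTRL ASO. The lowest OMA1 ASO array, OMA1 ASO1 replicate 5, was 0.11 above the highest CTRL ASO array, replicate 3. The mean was 8.18 ± 0.39 (SD, n = 8) with OMA1 ASO and 6.86 ± 0.43 (SD, n = 5) with CTRL ASO, a difference of 1.32 (standard error 0.216) or 2.50-fold. OMA1 ASO1 replicate 5 was 0.72 below the mean of the other OMA1 ASO1 arrays, so the difference was 1.41 without it. On the CTRL ASO arrays Efnb3 was only 0.36 to 1.44 above background, against 1.58 to 2.79 on the OMA1 ASO arrays.

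Clec3b, the tetranectin gene, was above background with OMA1 ASO only. Its signals were 7.06, 6.13 and 7.15 with OMA1 ASO2, 6.61, 6.23, 6.53, 6.28 and 5.53 with OMA1 ASO1, and 5.37, 4.72, 5.51, 5.08 and 5.32 with CTRL ASO. The signal was above background on 3 of 3 OMA1 ASO2 arrays, on 4 of 5 OMA1 ASO1 arrays and on 0 of 5 CTRL ASO arrays. The array below background among the OMA1 ASO1 arrays was replicate 5, which was 0.48 under its background and 0.02 above the highest CTRL ASO array. The measured means were 6.44 ± 0.53 (SD, n = 8) with OMA1 ASO and 5.20 ± 0.31 (SD, n = 5) with CTRL ASO, a fitted difference of 1.24 (standard error 0.237), which was 1.37 without OMA1 ASO1 replicate 5. Because the CTRL ASO signals are bounds only, Clec3b was at least 1.32-fold higher with OMA1 ASO when the background of each CTRL ASO array stood in for its signal. By the mean of the background probe sets, at 4.06 to 4.13, in place of the highest group, all 13 arrays counted as above background, so whether Clec3b was measurable with CTRL ASO depends on that choice.

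**Figure D1:**
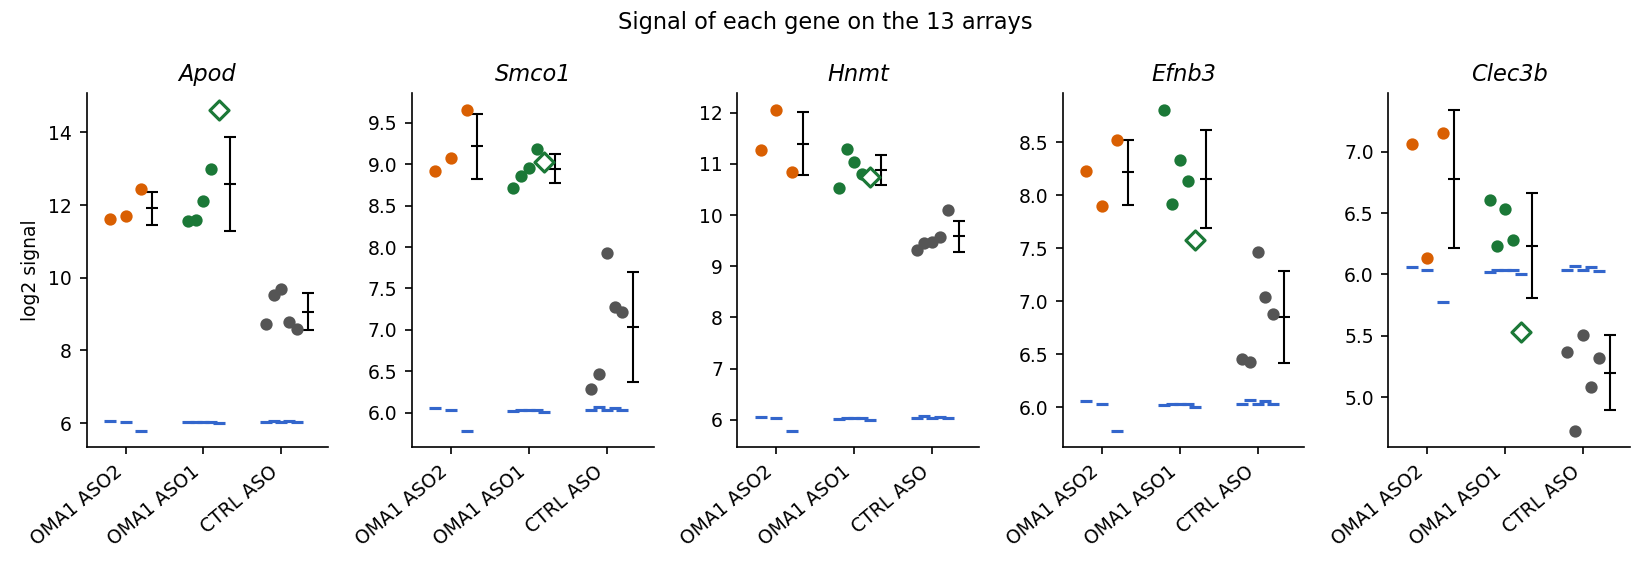
Log2 signal of each of the 5 genes on the OMA1 ASO2 (orange), OMA1 ASO1 (green) and CTRL ASO (grey) arrays, in the order of the replicates, with the mean ± SD at the right of each group. Blue dashes mark the background of each array and the open diamond is OMA1 ASO1 replicate 5, which is the highest array for Apod at 14.63 and the lowest OMA1 ASO array for Efnb3 at 7.58 and Clec3b at 5.53.

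The 5 genes lay within a small set of clusters that were higher with OMA1 ASO. With limma's p-values adjusted by Benjamini-Hochberg and a threshold of 0.01, 51 of 22206 clusters (0.23%) were higher and 179 (0.806%) were lower. By size of the difference Apod ranked 4, Smco1 16, Hnmt 22, Efnb3 23 and Clec3b 24 among the 51. The median difference of the 51 was 1.19, and for 38 of them, the 5 genes included, no OMA1 ASO array overlapped a CTRL ASO array. All OMA1 ASO arrays lay above all CTRL ASO arrays for 112 of the 22206 clusters (0.504%). These ranks describe how the 5 genes were picked, and that of Clec3b rests on CTRL ASO signals that are bounds only.

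Both OMA1 ASOs gave a higher signal of each gene than CTRL ASO did, in comparisons that share the 5 CTRL ASO arrays. Apod differed from CTRL ASO by 2.84 (standard error 0.532) with OMA1 ASO2 and by 3.51 (standard error 0.461) with OMA1 ASO1. Smco1 differed by 2.18 with OMA1 ASO2 and by 1.91 with OMA1 ASO1, and Hnmt by 1.81 with OMA1 ASO2 and by 1.30 with OMA1 ASO1. Efnb3 differed by 1.36 with OMA1 ASO2 and by 1.30 with OMA1 ASO1, so that the ASOs were closest for this gene. Clec3b differed by 1.58 with OMA1 ASO2, at least 1.67-fold over background, and by 1.04 with OMA1 ASO1, at least 1.14-fold over background.

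Whether the OMA1 ASOs differed from each other is a question that the choice of the genes did not answer, and it was tested. None of the 5 genes passed the threshold for OMA1 ASO2 minus OMA1 ASO1, in a comparison that called 23 of 22206 clusters (0.104%), and 0 of the 5 had an unadjusted p under 0.05 from limma, where 4.09% of all clusters were higher and 3.69% lower. Apod averaged 11.91 ± 0.46 with OMA1 ASO2 (SD, n = 3) and 12.58 ± 1.28 with OMA1 ASO1 (SD, n = 5), a log2 difference of -0.67 (95% interval -1.80 to 0.46, adjusted p = 0.817 from limma). That interval allows a change of over 1 log2 unit, and without OMA1 ASO1 replicate 5 the difference was -0.16. Clec3b averaged 6.78 ± 0.56 with OMA1 ASO2 (SD, n = 3) and 6.24 ± 0.43 with OMA1 ASO1 (SD, n = 5), a difference of 0.54 (95% interval -0.05 to 1.14, adjusted p = 0.686 from limma) that came to 0.87 without OMA1 ASO2 replicate 2 and to 0.36 without OMA1 ASO2 replicate 3 or OMA1 ASO1 replicate 5. Hnmt averaged 11.39 ± 0.62 with OMA1 ASO2 and 10.88 ± 0.30 with OMA1 ASO1, a difference of 0.52 (95% interval -0.05 to 1.08, adjusted p = 0.683 from limma). For both genes the point estimate favoured OMA1 ASO2 and the interval reached just below 0, and for Hnmt the difference was 0.18 without OMA1 ASO2 replicate 2, its highest array, and 0.79 without OMA1 ASO2 replicate 3. Smco1 averaged 9.22 ± 0.39 with OMA1 ASO2 and 8.95 ± 0.18 with OMA1 ASO1, a difference of 0.27 (95% interval -0.38 to 0.92, adjusted p = 0.885 from limma), which was 0.42 when OMA1 ASO2 replicate 1 was left out and 0.05 when replicate 3 was. Efnb3 averaged 8.22 ± 0.31 with OMA1 ASO2 and 8.16 ± 0.46 with OMA1 ASO1, a difference of 0.06 (95% interval -0.54 to 0.66, adjusted p = 0.982 from limma), which ran between -0.092 and 0.22 with 1 array left out. With 3 OMA1 ASO2 arrays these intervals are wide, and they do not show that the ASOs acted alike.

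**Figure D2:**
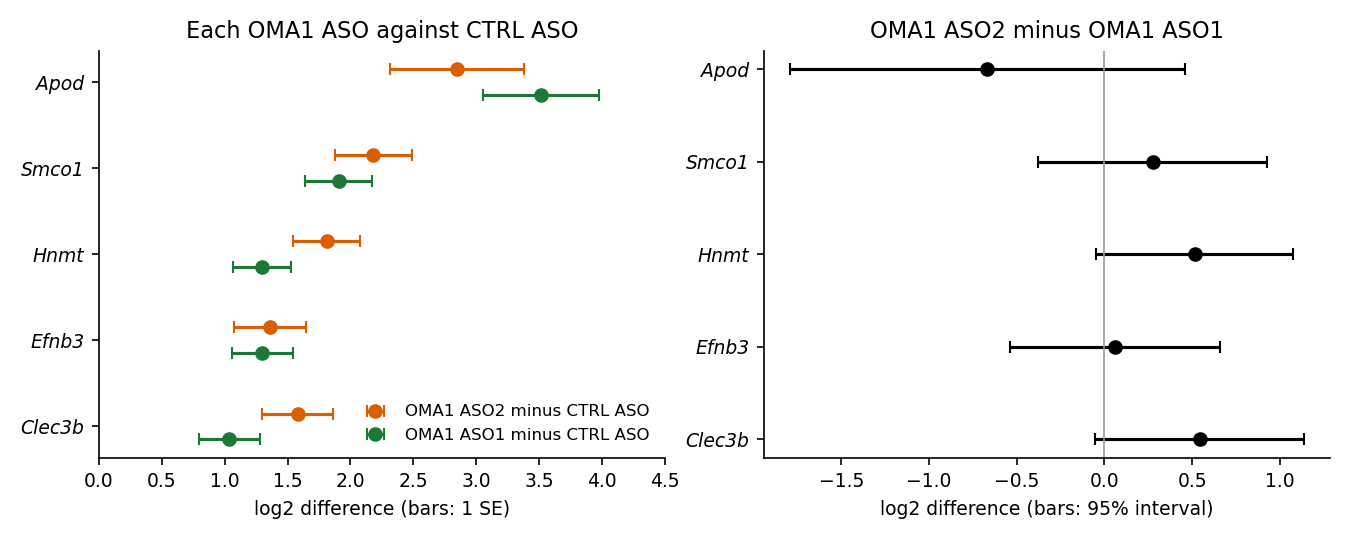
Left, log2 difference from CTRL ASO with OMA1 ASO2 (orange) and OMA1 ASO1 (green) for each gene, with bars of 1 standard error. Right, log2 difference of OMA1 ASO2 minus OMA1 ASO1 with 95% intervals, each of which includes 0, the widest being that of Apod at -1.80 to 0.46.

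Leaving out each array in turn moved the differences little. For Apod the difference between OMA1 ASO and CTRL ASO ran between 2.94, without OMA1 ASO1 replicate 5, and 3.42, without CTRL ASO replicate 3. It ran between 1.82 and 2.24 for Smco1, between 1.35 and 1.62 for Hnmt, between 1.22 and 1.48 for Efnb3 and between 1.12 and 1.37 for Clec3b. Only for Apod was the lowest value the one without OMA1 ASO1 replicate 5, and for Clec3b the value without it was the highest. On the 9 arrays with Y-linked genes below background, 6 OMA1 ASO against 3 CTRL ASO, the differences were 2.80 for Apod, 1.87 for Smco1, 1.41 for Hnmt, 1.40 for Efnb3 and 1.45 for Clec3b. On the other 4 arrays, 2 of OMA1 ASO1 against 2 of CTRL ASO, they were 4.35 for Apod, 2.16 for Smco1, 1.57 for Hnmt, 1.00 for Efnb3 and 0.65 for Clec3b, and OMA1 ASO1 replicate 5 was 1 of those 4. Over all arrays the treatments did not overlap for any of the 5 genes, so the treatments could not overlap on either set. The lack of overlap on these sets is therefore no separate check.

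**Figure D3:**
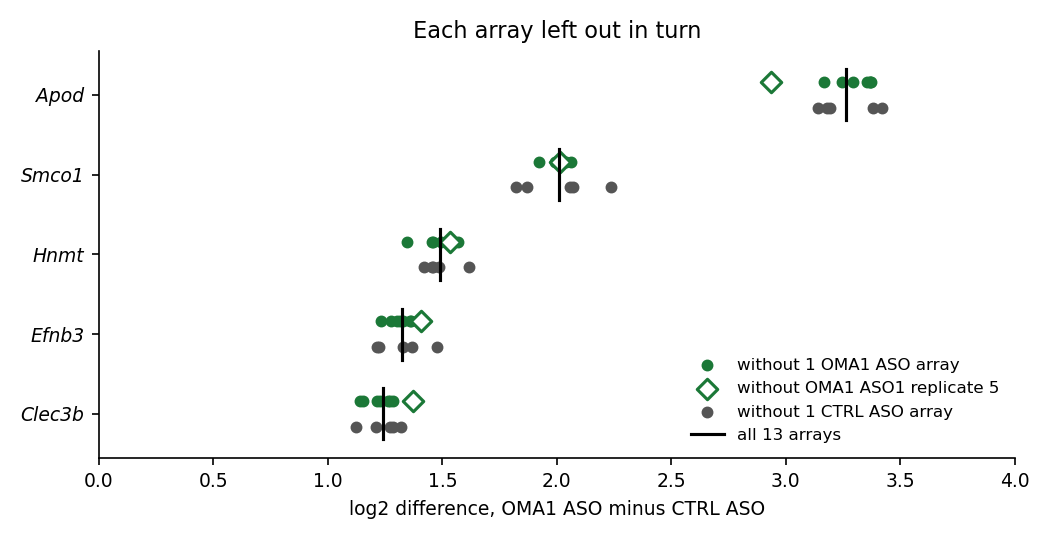
Log2 difference of OMA1 ASO minus CTRL ASO for each gene when 1 array was left out, with OMA1 ASO arrays (green) above CTRL ASO arrays (grey), and with all 13 arrays (black line). The open diamond leaves out OMA1 ASO1 replicate 5 and is the lowest value for Apod, at 2.94, and the highest for Clec3b, at 1.37.

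Over the 13 arrays the 5 genes were correlated with each other, with Pearson's r between 0.58 for Apod with Clec3b and 0.91 for Efnb3 with Smco1 and with Clec3b. All points share the treatment groups on which the genes were picked, so these values are descriptive. Within the treatments, after the mean of each group was taken off, Efnb3 and Clec3b still varied together (r = 0.75), as did Smco1 and Efnb3 (r = 0.57). Apod and Clec3b went opposite ways within the treatments (r = -0.48), which came to 0.01 over the 12 arrays without OMA1 ASO1 replicate 5. Hnmt followed none of the other 4 within the treatments, with r between -0.39 and -0.01.

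The clusters most like each gene over the 13 arrays were sought among 8472 clusters with a symbol that were above background on at least 8 arrays. These r include the difference between the treatments that chose the genes, so r within the treatments is given too. Both come from the 13 arrays on which the clusters were ranked, so r within is descriptive and no separate check. OMA1 ASO1 replicate 5 is in both. For Apod they were Adk (r = 0.943, 0.88 within), the gene of adenosine kinase, Fundc2 (r = 0.929, 0.63 within) and Apbb1 (r = 0.919, 0.54 within). For Smco1 they were 4430402I18Rik (r = 0.927, 0.50 within), Adi1 (r = 0.927, 0.62 within), an enzyme of methionine salvage, and Nqo2 (r = 0.924, 0.53 within), a quinone reductase. For Hnmt they were Tmem71 (r = 0.909, 0.67 within), Ehbp1 (r = 0.906, 0.64 within) and Ghr (r = 0.899, 0.28 within), the growth hormone receptor. Adk was also high on OMA1 ASO1 replicate 5, at 14.22, the top of its OMA1 ASO range of 13.34 to 14.22, against 12.64 to 13.25 with CTRL ASO. For Efnb3 they were Stk39 (r = 0.915, 0.64 within), a kinase of ion transport, Adi1 (r = 0.912, 0.62 within) and Ccl21c (r = 0.911, 0.72 within), a chemokine gene with near-identical copies that probes may not tell apart. For Clec3b they were Eno3 (r = 0.933, 0.80 within), the muscle enolase, Stk39 (r = 0.913, 0.69 within) and Asb12 (r = 0.904, 0.75 within). Eno3 was lowest among the OMA1 ASO arrays on OMA1 ASO1 replicate 5, at 15.69, where Clec3b was lowest too, and lay between 15.25 and 15.59 with CTRL ASO.

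Apod and Smco1 both lie on chromosome 16, with 15 protein-coding genes between them in the RefSeq order, of which 13 were measured and 8 were above background on at least 1 array. None of the 13 was called higher or lower by limma, and 1, Bdh1, was lower at an unadjusted p under 0.05. Over all clusters 5.58% were higher and 7.25% lower at that unadjusted threshold. Their differences ran between -0.77 for Bdh1, an enzyme of ketone body metabolism next to Apod, and 0.36 for Pigx, with a median of 0.04. Bdh1 was 9.75 ± 0.80 (SD, n = 8) with OMA1 ASO and 10.52 ± 0.51 (SD, n = 5) with CTRL ASO (adjusted p = 0.345 from limma). On the other side of Apod, Ppp1r2 differed by 0.44 (standard error 0.246), and next to Smco1, Rnf168 differed by 0.23 (standard error 0.141). Among 18 measured neighbours of the 5 genes, taken as far as the second gene on each side, 0 were called and 2 had an unadjusted p under 0.05 from limma, a share near that of all clusters. These were Dnah2 beside Efnb3, which was below background on every array, and Bdh1.

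**Figure D4:**
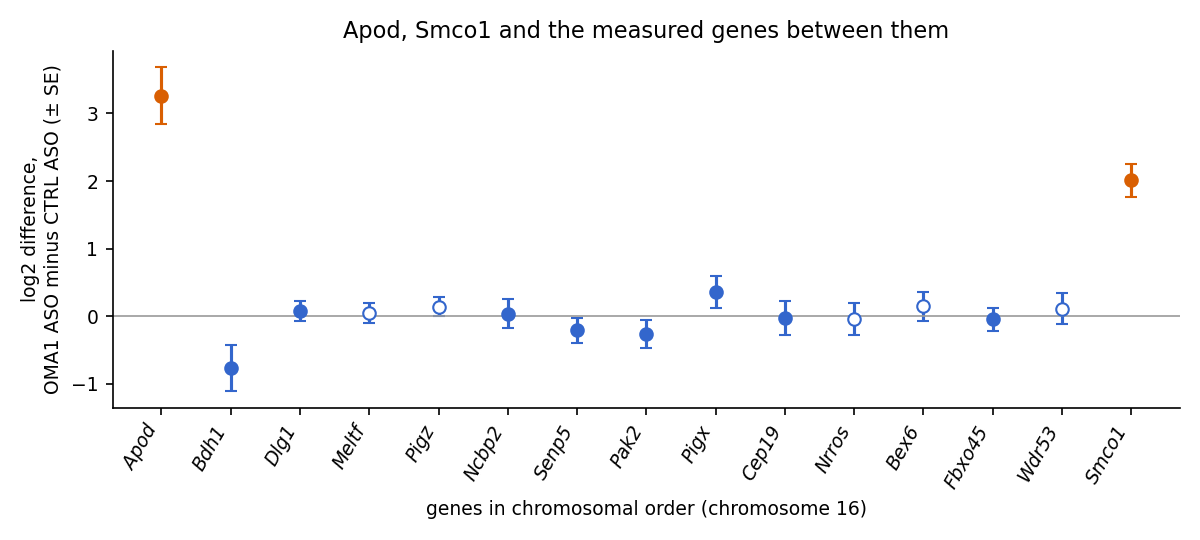
Log2 difference of OMA1 ASO minus CTRL ASO (± standard error) for Apod and Smco1 (orange) and the 13 measured genes between them (blue) in chromosomal order, not to distance. Open points were below background on every array, and all genes between the pair lie within -0.77 and 0.36.

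Genes that share a pathway with the 5 were described from lists, counted without the 5 themselves and set beside the median of all clusters, 0.0141. Counts at an unadjusted p under 0.05 are to be read against the 5.58% of all clusters that were higher and the 7.25% that were lower at that threshold. Of 19 other measured apolipoproteins and lipocalins, 0 were called higher and 0 lower by limma, 2 were higher at an unadjusted p under 0.05, and the median difference was 0.07. Most of them were below background in these hearts, 15 of 19, among them the liver apolipoproteins Apoa1 and Apob. Ptgds, a lipocalin that makes prostaglandin D2, was 15.53 ± 1.52 (SD, n = 8) with OMA1 ASO and 13.14 ± 0.54 (SD, n = 5) with CTRL ASO, a difference of 2.38 (standard error 0.582, adjusted p = 0.0378 from limma), which missed the threshold. Clu, the gene of clusterin (apolipoprotein J), was 15.59 ± 0.85 (SD, n = 8) and 14.13 ± 0.63 (SD, n = 5) in the same order, a difference of 1.46 (adjusted p = 0.0474 from limma). With OMA1 ASO2 and OMA1 ASO1 the means were 14.46 and 16.17 for Ptgds, and 14.69 and 16.13 for Clu. For Clu the OMA1 ASO2 mean lay within the CTRL ASO range of 13.37 to 15.11. Neither gene was called for OMA1 ASO2 minus OMA1 ASO1 (adjusted p = 0.491 for Ptgds and 0.123 for Clu from limma). Apoe was 12.99 ± 0.57 with OMA1 ASO and 13.16 ± 0.31 with CTRL ASO.

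The array that was highest for Apod was also highest for Ptgds and Clu, and the lowest of the OMA1 ASO arrays for Apoe. OMA1 ASO1 replicate 5 measured 17.90 for Ptgds, against 12.82 to 16.47 on the other 7 OMA1 ASO arrays, and 17.06 for Clu, against 14.56 to 16.04. Without it the difference was 2.04 for Ptgds and 1.25 for Clu. The summed linear signal of 12 genes of the glucocorticoid receptor and its targets was 1190000 on that array. It was 104000 to 393000 on the other OMA1 ASO arrays and 172000 to 289000 on the CTRL ASO arrays. The metallothionein genes Mt1 and Mt2 made up 87.4% of that sum, at 19.33 and 18.52. Fkbp5, a co-chaperone of the receptor, was 15.51 there and 11.27 to 13.08 on the other OMA1 ASO arrays. Per1 (10.03), Zbtb16 (15.1), Sgk1 (12.18), Klf9 (14.89) and Errfi1 (12.96) were also at their highest OMA1 ASO signal on that array. Dusp1 (14.25), Pdk4 (11.48) and Tsc22d3 (9.76) lay within the range of the other OMA1 ASO arrays. Nr3c1, the receptor itself, was at its lowest there, at 7.75 against 8.12 to 8.73 on the other OMA1 ASO arrays. The sum of 8 genes of LXR and its targets was 338000 on that array, 155000 to 201000 on the other OMA1 ASO arrays and 142000 to 216000 on the CTRL ASO arrays. Lpl, the lipoprotein lipase gene, alone made up 96.7% of it, at 18.32, and Pltp was at its lowest there, at 5.81 against 7.64 to 8.63 on the other OMA1 ASO arrays. In the comparison of OMA1 ASO with CTRL ASO, 0 of the 12 and 0 of the 8 were called by limma (0 and 1 had an unadjusted p under 0.05), with medians of 0.05 and 0.16. Without this array Apod still differed by 2.94 between the treatments.

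In the histamine list, Hnmt was higher with OMA1 ASO and Maoa fell. Of the 11 other measured genes, 0 were called higher and 1 lower, 1 was higher and 3 were lower at an unadjusted p under 0.05, and the median difference was 0.06. Maoa, a monoamine oxidase of the outer mitochondrial membrane, was 7.81 to 9.28 on the OMA1 ASO arrays and 10.50 to 12.05 on the CTRL ASO arrays. It fell by 2.82 on the log2 scale (standard error 0.271 and adjusted p = 4.65e-06 from limma), and its adjusted p lay between 6.87e-07 and 0.000195 over 22 alternatives. Maob, which acts on methylated histamine, was 9.48 ± 0.68 with OMA1 ASO (SD, n = 8) and 8.51 ± 0.39 with CTRL ASO (SD, n = 5), a difference of 0.96 that was not called (adjusted p = 0.115 from limma). Aldh2, an aldehyde dehydrogenase that acts after the oxidases, was 12.55 to 13.38 on the OMA1 ASO arrays and 13.20 to 14.47 on the CTRL ASO arrays, a difference of -0.58 that was not called (adjusted p = 0.227 from limma). Hdc, which makes histamine, was above background on 1 of 8 OMA1 ASO arrays and 0 of 5 CTRL ASO arrays, and Aoc1, the diamine oxidase of the other breakdown route, and the receptors Hrh1, Hrh2, Hrh3 and Hrh4 were below it on all 13 arrays. Of 16 other genes of S-adenosylmethionine supply and small-molecule methylation, 0 were called by limma, and 1 was higher and 2 were lower at an unadjusted p under 0.05, with a median difference of 0.05. Ahcy, which clears the S-adenosylhomocysteine that methyl transfer leaves, was 8.89 ± 0.32 with OMA1 ASO and 9.24 ± 0.20 with CTRL ASO.

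Besides Efnb3, 7 ephrins were measured. They had a median difference of 0.10, 0 of them were called and 0 had an unadjusted p under 0.05 from limma. Its relatives of the B class were close to level, with Efnb1 at 7.93 ± 0.43 with OMA1 ASO (SD, n = 8) and 7.82 ± 0.34 with CTRL ASO (SD, n = 5), and Efnb2 at 11.81 ± 0.33 with OMA1 ASO and 11.69 ± 0.60 with CTRL ASO. Of 13 measured Eph receptors, 0 were called by limma, 2 were higher at an unadjusted p under 0.05, and the median difference was 0.14. Epha4, a receptor that binds ephrin-B3, was 8.94 ± 0.58 with OMA1 ASO (SD, n = 8) and 7.80 ± 0.40 with CTRL ASO (SD, n = 5), a difference of 1.14 (adjusted p = 0.0262 from limma) that missed the threshold. Ephb1 was below background on all 13 arrays and Ephb3 on all but 1.

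For Clec3b, the plasminogen system was largely not measurable in these hearts. Of the 15 other genes of tetranectin and plasminogen, 9 were below background on all 13 arrays, among them Plg, the gene of plasminogen, which is made in the liver. None was called by limma, 1 was higher at an unadjusted p under 0.05, and the median difference was 0.14. That gene was Plau, the urokinase-type activator, at 5.84 ± 0.51 with OMA1 ASO (SD, n = 8) and 5.18 ± 0.20 with CTRL ASO (SD, n = 5), above background on 3 of 8 and 0 of 5 arrays. Plat, the tissue-type activator, was 7.65 ± 0.54 with OMA1 ASO and 7.32 ± 0.21 with CTRL ASO.

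**Figure D5:**
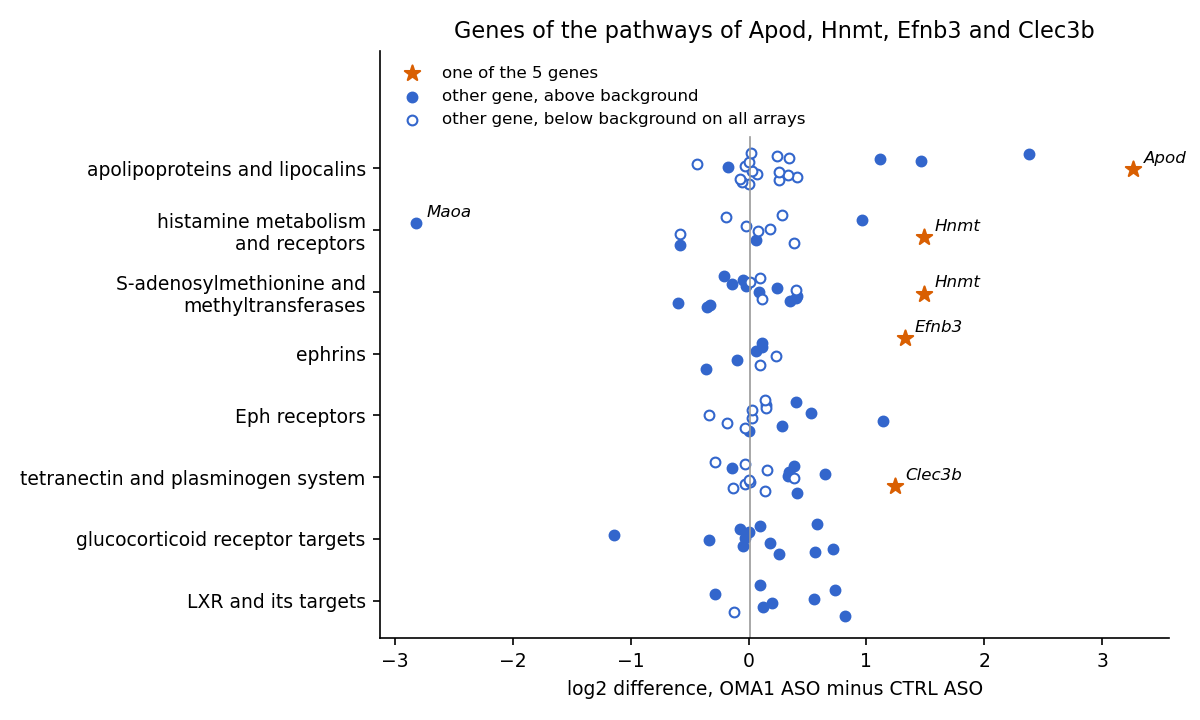
Log2 difference of OMA1 ASO minus CTRL ASO for the genes of each pathway list, with Apod, Hnmt, Efnb3 and Clec3b as stars (Smco1 is in no list) and genes below background on all 13 arrays as open points. The grey line is the median of all clusters, 0.0141, and the names mark these 4 genes and Maoa, the only other gene called, at -2.82.

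Markers of heart cells were counted beside these values. The labelled tissue was checked by ventricular cardiomyocyte markers, with 9 of 9 above background and a summed linear signal of 3440000 to 3790000 with OMA1 ASO and 3260000 to 3630000 with CTRL ASO. Of 9 fibroblast markers, 0 were called, and their sum was 398000 to 614000 with OMA1 ASO and 272000 to 564000 with CTRL ASO, so the groups overlapped. Dcn, the brightest of them, weighs most in this sum. On OMA1 ASO1 replicate 5, Col1a1 (5.87), Col1a2 (5.78), Col3a1 (4.53), Lum (10.38), Dpt (12.39) and Pi16 (5.0) were at their lowest OMA1 ASO signal. Dcn (18.76), Gsn (14.79) and Tcf21 (6.39) were not. The sum of 9 endothelial markers was lowest on OMA1 ASO1 replicate 5, at 100000. It was 187000 to 326000 on the other OMA1 ASO arrays and 179000 to 260000 with CTRL ASO. Fabp4, the brightest of these markers, weighs most in this sum. On OMA1 ASO1 replicate 5, Fabp4 (15.85), Kdr (12.54), Tie1 (5.9) and Emcn (10.25) were at their lowest OMA1 ASO signal. Pecam1 (13.71), Cdh5 (14.1), Tek (9.02) and Cldn5 (11.13) were at their highest, so the markers did not fall together on that array. Of 8 mast cell markers, 0 were called. Of these, 2 were lower at an unadjusted p under 0.05 from limma, Cpa3 and Mcpt4, where 7.25% of all clusters were lower. Lyz2, the brightest of 9 macrophage markers, weighs most in their sum. The sum of the 9 was 1680 to 9380 with OMA1 ASO, the lowest on OMA1 ASO1 replicate 5, and 3170 to 5940 with CTRL ASO. Without that array the sum was 5430 to 9380 with OMA1 ASO, so the groups overlapped in part either way. One of them, Cd163, fell below background on all 8 OMA1 ASO arrays, which is at least 1.80-fold under CTRL ASO (adjusted p = 5.68e-06 from limma). At an unadjusted p under 0.05 from limma, 3 of the 9 were higher and 1 lower, where 5.58% of all clusters were higher and 7.25% lower. The higher ones were Adgre1 by 0.79, C1qb by 0.78 and C1qc by 0.73, of which none passed the threshold. Of the rest, Lyz2 (0.70) and C1qa (0.36) had positive differences, and Csf1r (-0.71), Mrc1 (-0.52) and Fcgr1 (-0.17) negative ones. The sum of 7 atrial markers was 89200 to 466000 with OMA1 ASO and 17200 to 443000 with CTRL ASO. Nppa, the brightest of them, weighs most in this sum. It was 16.39 to 18.82 with OMA1 ASO and 13.75 to 18.68 with CTRL ASO. Its difference of 1.30 was not called (adjusted p = 0.387 from limma). In the same list Kcnj3 was higher by 1.75 (adjusted p = 0.00653 from limma). The largest difference of the list was that of Bmp10, at 9.30 ± 1.84 with OMA1 ASO (SD, n = 8) and 13.03 ± 1.81 with CTRL ASO (SD, n = 5), or -3.72, which missed the threshold (adjusted p = 0.0239 from limma). The median of the list was -0.15, and Myl7 was below background on all arrays. Kcnj3 did not pass when OMA1 ASO2 replicate 1 or any of CTRL ASO replicates 1, 2, 3 and 4 was left out, nor with a mean-variance trend and robust fitting, the replicate block or only the 9 arrays with low Y-linked signal, and its adjusted p lay between 1.40e-05 and 0.0594 over 22 alternatives. Of 6 measured Schwann cell markers, which mark cells known to express Apod in nerve, 5 were below background on all arrays, Sox10 and S100b among them, with sums of 115 to 332 with OMA1 ASO and 128 to 151 with CTRL ASO. Skeletal muscle markers summed to 8500 on OMA1 ASO1 replicate 1, against 204 to 231 on the CTRL ASO arrays, and without that array the difference between OMA1 ASO and CTRL ASO was 1.23 for Efnb3 and 2.06 for Smco1. The part of these cells in the differences was not tested.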

How the data were processed

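RNA of 13 hearts was hybridised to Clariom S Mouse arrays, and per the methods the authors summarized the log2 signals per gene with Transcriptome Analysis Console (SST-RMA, which corrects background and normalizes arrays by quantiles). Of 28846 probe sets, 6640 controls were left out. Array medians were 5.24 to 5.34, and the number of arrays limits the precision.

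limma 3.58.1 (R 4.3.3) was fitted to 8 OMA1 ASO against 5 CTRL ASO arrays, or to 3 group means of shared spread for each ASO, adjusted by Benjamini-Hochberg over 22206 clusters with a threshold of 0.01. A gene with several clusters was taken by the brightest. In bounds, the background of each array replaced a signal under it in the lower group only. Clec3b on OMA1 ASO1 replicate 5 therefore kept its measured signal. On simulated arrays the comparison of OMA1 ASO with CTRL ASO recovered 48 of 50 clusters raised by 2 log2 units and 26 of 50 raised by 1, and that of ASO2 with ASO1 recovered 42 and 9 of 50. The simulated signals were independent normal values with the mean and spread of each cluster. No simulated array stood apart as OMA1 ASO1 replicate 5 does, so recovery in the real arrays may differ.

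Genes and lists were chosen with earlier results of these data known. Named are the 5 genes, list genes called, up to 3 others per list for their role, the 3 clusters most like each gene, and neighbours. Ptgds, Clu, Epha4, Plau, Maob, Aldh2, Bmp10, the other macrophage markers and the genes of OMA1 ASO1 replicate 5 were chosen after their values were seen. So were Nppa and the endothelial, fibroblast and mast cell markers. Alternatives were robust fitting with a trend, only the groups compared, renewed quantile normalization, median centring, array weights, a filter on clusters above background on at least 3 arrays, a covariate of Y-linked genes, a block for the replicate number, other background levels, each array left out and, added after seeing the data, the 9 arrays with Y-linked genes below background.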

Additional observations from a re-analysis of the deposited data

How the results depend on the processing

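Of 440 differences of the 5 genes recomputed under 22 alternatives, 433 stayed the same by the following rules. For comparisons with CTRL ASO this meant the same direction and a move of less than the spread between arrays, without a threshold. For OMA1 ASO2 minus OMA1 ASO1 it meant the same direction and the same side of the threshold. Most of the 440 are comparisons with CTRL ASO, which chose the genes, so the count is a description only. Some of these could not move, since a trend with robust fitting and the filter on clusters leave a log2 difference as it is. For a single OMA1 ASO, so do a fit of only the groups compared and leaving out an array of the other OMA1 ASO. The other 7 were all of Efnb3 for OMA1 ASO2 minus OMA1 ASO1, which is close to 0 (0.06 with all arrays). It was -0.0084 with array weights, -0.11 with the Y-linked covariate, -0.0036 with the replicate block and -0.21 on the 9 arrays with Y-linked genes below background, and ran between -0.092 and 0.22 when each array was left out, with an adjusted p of 0.881 or more from limma throughout. Clec3b was above background on 7 arrays by the highest background group and on 13 by the mean of the background probe sets.

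The counts of clusters that give the background moved more. Clusters higher with OMA1 ASO numbered 51, 80 with array weights, 28 on the 9 arrays with low Y-linked signal and 17 to 83 with 1 array left out, being 83 without OMA1 ASO1 replicate 5, 17 without CTRL ASO replicate 2, 21 without CTRL ASO replicate 1, 24 without CTRL ASO replicate 4 and 32 without OMA1 ASO1 replicate 3. Those lower numbered 179, and 100 on the 9 arrays. With OMA1 ASO1, 44 were higher, 27 in a fit of only the groups compared, 77 with array weights, 29 on the 9 arrays and 18 to 94 with 1 array left out (94 without OMA1 ASO1 replicate 5), and 160 were lower, 79 on the 9 arrays. With OMA1 ASO2, 41 were higher, 23 with the Y-linked covariate and 20 to 91 with 1 array left out (91 without OMA1 ASO1 replicate 5), and 128 were lower, 84 with the covariate and 76 to 178 with 1 array left out. For OMA1 ASO2 minus OMA1 ASO1, 15 were higher, 26 with a trend and robust fitting, 5 with only the groups compared and 3 to 26 with 1 array left out, and 8 were lower, 13 with the trend, 4 with only the groups compared, 5 on the 9 arrays and 5 to 12 with 1 array left out. Fewer arrays went into the fits on 9 arrays, and the cause of the other changes was not tested.

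The replicate numbers are shared between treatments. Arrays of the same number deviated together little on average (mean r = 0.0556 over 11 pairs, lowest -0.197, highest 0.305). For pairs of different number the mean r was -0.0139 over 44 pairs. Whether arrays of the same number share more than the number cannot be told from so few pairs. With the replicate number as a block, 9 clusters were higher and 5 lower for OMA1 ASO2 minus OMA1 ASO1. Signal over background limits Clec3b, and to a lesser degree Efnb3 and Smco1, on the CTRL ASO arrays.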
